A study of Mus musculus with 16 samples.

Results

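The 10 genes described here, *Nwd1*, *Dync2h1*, *Slx1b*, *Psrc1*, *Slc3a1*, *Prrt2*, *Prob1*, *Lman1l*, *Prr7* and *Cdr2l*, were chosen by their own levels in Tox4 cKO against control thymocytes. They are 10 of the 24984 genes in the table of DP cells and 10 of the 24974 in the table of CD8 cells. Because those levels selected them, each of their differences between cKO and control is a description, and nothing is supported with it. The calls counted further on describe how the values sit against the threshold under each tool, and are no test of the list. The working description of the list was that its genes rise after Tox4 loss. *Prrt2* went against that description, with lower levels in cKO than in control cells of both types, so the list is called here the *Nwd1* and *Psrc1* list, after 2 of its genes with no ranking meant. The other 9 genes had higher mean levels in cKO DP cells, and all 9 had a positive fitted change in CD8 cells, where that of *Nwd1* was close to 0.

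PolyA RNA was sequenced from mouse DP thymocytes, positive for CD4 as well as CD8, and from CD8 thymocytes, in 3 control and 3 cKO samples of the first and 5 of each genotype of the second. Control mice had the genotype Tox4;F/F, with loxP-flanked exons of *Tox4* and no Cre, and cKO mice were labelled Tox4;F/F;Lck+ in the DP samples and Tox4;F/F;Lck-cre in the CD8 samples. Per the study, the mice were C57BL/6 littermates matched by gender and aged 6 to 8 weeks. Cre was driven by the proximal *Lck* promoter, which acts from the double-negative stage on. Deletion of *Tox4* was thus designed to begin in immature precursors of both cell types. Both cell types were obtained by flow sorting, the CD8 cells as TCRβ+CD8+ thymocytes. Total fragment counts on genes were 14583336 to 25981683 in the DP samples and 8514135 to 13530783 in the CD8 samples. The libraries carry no molecular identifiers, so fragments are not counts of independent molecules. Levels within a gene are given as normalized CPM, fragments scaled to library size by TMM, and levels between genes as TPM, which also divides by the exonic length.

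Tox4 is an HMG-box protein found with the phosphatase complex that holds PNUTS and PP1, and this complex acts on RNA polymerase II during elongation and near the ends of genes. Polymerase that has not stopped at the end of a gene can transcribe into the next gene on the same strand, which is why the position of each gene behind its neighbour was examined. The 10 genes belong to no common pathway. Several are best known outside T cells, such as *Slc3a1* in kidney and *Prrt2* in neurons.

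Promoter sequences were found for 7 of the 10 genes in the RefSeq table of GRCm38.p6, in 8 windows of 250 bases before to 50 after the start, since *Psrc1* had 2 starts. *Prrt2*, *Prob1* and *Cdr2l* were not matched. The windows did not share one base composition. The ratio of observed to expected CpG was 0.135 for *Lman1l*, 0.304 for *Nwd1*, 0.491 for *Slc3a1*, 0.688 for *Dync2h1*, 0.706 for *Slx1b*, 0.816 for the upstream start of *Psrc1* and 0.847 for *Prr7*. The median over all 32851 windows was 0.384, and 35.8% of them reached 0.6. The 250 bases upstream of 4 genes are shown because they differ in CpG, from *Nwd1*, below the median of all windows, through *Slc3a1* to *Slx1b* and *Psrc1*, both above 0.6: chr8:72646461-72646710 on the plus strand for *Nwd1*, chr17:85028097-85028346 on the plus strand for *Slc3a1*, chr7:126695784-126696033 on the minus strand for *Slx1b* and chr3:108383554-108383803 on the plus strand for *Psrc1*. Each reads 5′ to 3′ on the strand of its gene, with matches to the motifs searched in capitals.
Nwd1: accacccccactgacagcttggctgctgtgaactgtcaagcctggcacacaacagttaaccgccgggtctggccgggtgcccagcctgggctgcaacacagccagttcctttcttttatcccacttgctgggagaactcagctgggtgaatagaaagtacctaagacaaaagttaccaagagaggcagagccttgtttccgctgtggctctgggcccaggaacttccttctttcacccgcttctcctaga
Slc3a1: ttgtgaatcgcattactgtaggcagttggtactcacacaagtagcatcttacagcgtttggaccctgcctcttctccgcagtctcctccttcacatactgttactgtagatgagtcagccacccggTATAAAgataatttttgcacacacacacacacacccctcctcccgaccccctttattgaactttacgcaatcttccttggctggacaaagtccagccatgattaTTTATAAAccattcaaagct
Slx1b: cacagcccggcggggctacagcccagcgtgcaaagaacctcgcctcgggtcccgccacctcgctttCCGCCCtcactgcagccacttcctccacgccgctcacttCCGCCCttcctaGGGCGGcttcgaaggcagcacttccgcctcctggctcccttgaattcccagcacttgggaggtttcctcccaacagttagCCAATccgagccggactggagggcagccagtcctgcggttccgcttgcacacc
Psrc1: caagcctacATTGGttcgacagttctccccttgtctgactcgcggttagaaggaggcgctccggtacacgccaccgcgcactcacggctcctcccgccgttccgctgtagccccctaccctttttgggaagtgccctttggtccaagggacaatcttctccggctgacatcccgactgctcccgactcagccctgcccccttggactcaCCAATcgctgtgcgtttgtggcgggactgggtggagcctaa

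The motifs searched on both strands were the TATA box TATAAA, found in 13.6% of all windows, the CCAAT box CCAAT, found in 37.4%, and the GC box GGGCGG, found in 35.7%. An E-box, CAGGTG, was found in 20.2% of windows, the RUNX core TGTGGT in 16.8% and an ETS site, CCGGAAG, in 8.86%. The *Slc3a1* sequence held the TATA box at -124 and, on both strands and overlapping each other, at -20 and -18. *Psrc1* held a CCAAT box at -241 on the opposite strand and another at -41, and a GC box on the opposite strand 18 bases past the start, outside the printed part. Counted from its second start, a CCAAT box lay at -75 and a GC box on the opposite strand at -17. *Slx1b* held a CCAAT box at -53 and GC boxes at -184 and -145 on the opposite strand and at -133. The *Nwd1* and *Lman1l* windows held none of these letters. *Prr7* had an E-box at -119, and *Dync2h1* had a CCAAT box at -70, a RUNX core at -151 and an ETS site on the opposite strand at -16. A match is a run of letters and not a measured binding site.

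*Tox4* itself stood at 154, 172 and 180 normalized CPM in the control DP samples and at 133, 141 and 131 in the cKO DP samples. Every cKO DP sample lay below every control sample, but the fitted change of -0.32 ± 0.11 (SE, n = 3 per group) on the log2 scale did not pass the quasi-likelihood test of edgeR after Benjamini-Hochberg adjustment (adjusted p = 0.381, or 0.138 when same-numbered samples were blocked). In CD8 cells *Tox4* stood at 197, 188, 200, 201 and 178 normalized CPM in the controls and at 169, 185, 176, 234 and 164 in the cKO samples. The library labelled cKO replicate 4 thus held more *Tox4* RNA than any control, and the groups overlapped (log2 change -0.06 ± 0.0985, SE, n = 5 per group; edgeR quasi-likelihood adjusted p = 0.979). The study reported efficient deletion from Western blots of Tox4 protein in unsorted and sorted thymocytes. A gene count includes fragments of the exons outside the deleted part, so it measures the deletion weakly. The calls and log2 changes of the 10 genes in CD8 cells are therefore given with and without that library.

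DP markers identified the DP samples, with *Cd4* at 1454 to 1834 TPM and *Rag1*, which encodes a subunit of the V(D)J recombinase, at 2556 to 4269 TPM. CD8 samples held *Cd8a* at 1334 to 1691 TPM and *Runx3*, a regulator of the CD8 lineage, at 430 to 511 TPM. The CD8 libraries were not alike in their DP transcripts. *Cd4* stood at 62.1, 70.9, 6.31, 3.64 and 10.7 TPM in the CD8 controls numbered 1 to 5 and at 69.7, 81.6, 6.78, 5.79 and 8.33 TPM in the cKO samples. *Rag1* stood at 43.4, 60.1, 10.8, 5.57 and 7.36 TPM in these controls and at 37.2, 48.1, 12.1, 15.8 and 12.4 TPM in the cKO samples. Both genotypes thus held more DP transcripts in the samples numbered 1 and 2 than in the other CD8 samples. CD8 control 1 also stood apart by 17741 genes with at least 1 fragment, against 13708 to 14194 in the other CD8 controls and 13788 to 15054 in the CD8 cKO samples.

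*Nwd1*, which encodes a protein with NACHT and WD-repeat domains, was the most abundant of the 10 genes in DP cells. It stood at 235, 215 and 214 normalized CPM in the control DP samples and at 419, 449 and 467 in the cKO samples. All cKO samples lay well above all controls, and the fitted change was 1.01 ± 0.104 (SE, n = 3 per group) on the log2 scale. CD8 cells had much less of it: 18.7, 10.8, 1.30, 2.39 and 1.89 normalized CPM in the controls and 13.2, 9.26, 4.61, 2.78 and 4.60 in the cKO samples. Its CD8 groups overlapped and the fitted change was 0.01 ± 0.626, with a negative sign of -0.02 in DESeq2 and values from -0.37 to 0.77 as single samples were left out. The CD8 samples numbered 1 and 2, high in *Cd4* and *Rag1*, were also the highest in *Nwd1* in each genotype. Of the 9 DP thymocyte markers, all were in the table and none was at 0 in every CD8 sample, and their sum, led by *Cd3e*, was 8545, 7293, 6523, 5887 and 6169 TPM in the CD8 controls and 6534, 6720, 5737, 7229 and 6180 TPM in the CD8 cKO samples. The part of DP cells in the CD8 counts of *Nwd1* was not tested, and in bulk samples fewer cells of a type and less RNA per cell cannot be told apart.

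**Figure D1:**
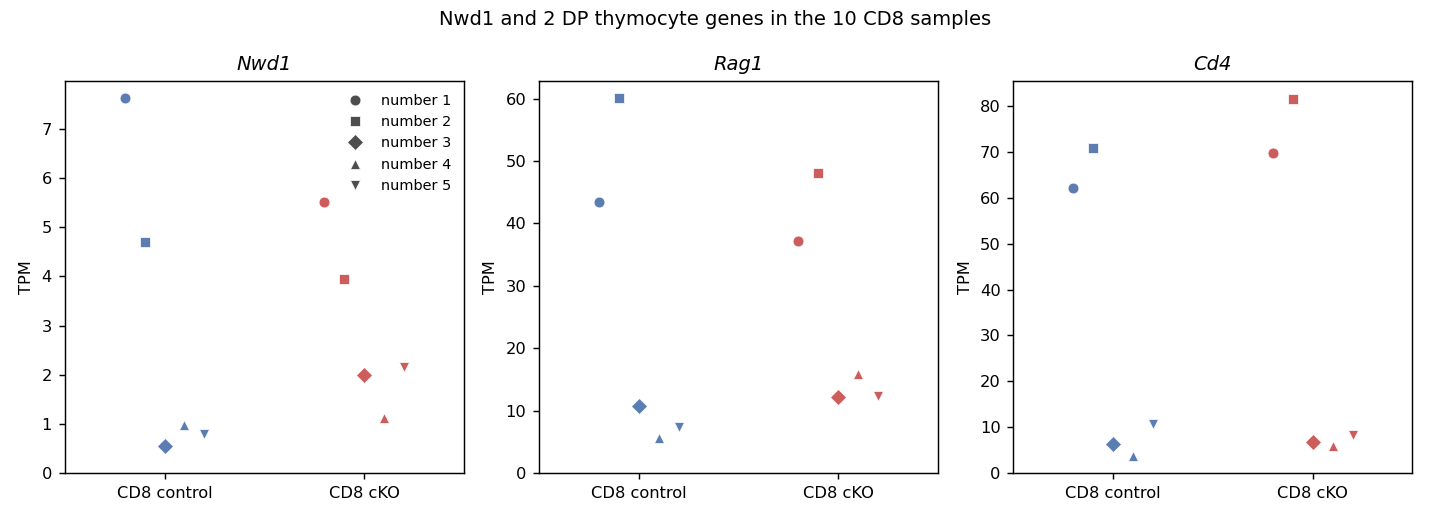
Level in TPM, on linear axes from 0, of *Nwd1* and of the DP transcripts *Rag1* and *Cd4* in the 5 control and 5 cKO CD8 samples, with 1 point per sample, its colour giving the genotype and its symbol the replicate number. In each panel the samples numbered 1 and 2 of both genotypes sit above the others.

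*Psrc1*, which encodes a microtubule-binding protein of the mitotic spindle, showed the reverse order of the cell types in its change. In CD8 cells it stood at 3.37, 2.29, 1.80, 1.84 and 2.48 normalized CPM in the controls and at 8.17, 6.29, 7.53, 7.53 and 5.98 in the cKO samples. The groups were far apart, with a fitted log2 change of 1.59 ± 0.224 (SE, n = 5 per group). In DP cells it stood at 11.4, 13.6 and 7.37 normalized CPM in the controls and at 16.4, 15.2 and 17.2 in the cKO samples. The DP groups were also apart, by a smaller log2 change of 0.59 ± 0.225.

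*Dync2h1*, the heavy chain of the dynein-2 motor that carries cargo back from the tip of cilia, stood at 31.1, 37.3, 38.4, 35.9 and 32.5 normalized CPM in the CD8 controls and at 50.3, 52.3, 69.8, 47.9 and 65.1 in the CD8 cKO samples. The CD8 groups did not overlap (log2 change 0.70 ± 0.123). In DP cells the controls held 33.7, 17.9 and 16.5 normalized CPM and the cKO samples 58.3, 31.6 and 24.1. These groups overlapped because control 1 was higher than cKO samples 2 and 3, yet each cKO sample was above the control of its own number, by 1.73, 1.77 and 1.46 times. *Slx1b*, the catalytic subunit of the SLX1-SLX4 nuclease that cleaves branched DNA, stood at 14.2, 15.2, 14.1, 13.5 and 16.4 normalized CPM in the CD8 controls and at 26.2, 28.7, 26.3, 21.0 and 22.4 in the CD8 cKO samples. In DP cells it stood at 17.7, 17.9 and 16.8 in the controls and at 36.4, 21.7 and 25.0 in the cKO samples. Its groups were apart in both cell types, with log2 changes of 0.76 ± 0.122 in CD8 and 0.67 ± 0.198 in DP cells.

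Membrane and secretory proteins made up 4 of the 10. *Slc3a1*, the heavy subunit of a transporter of cystine and dibasic amino acids, stood at 3.87, 4.09 and 3.72 normalized CPM in the DP controls and at 9.60, 9.23 and 6.01 in the DP cKO samples. In CD8 cells it stood at 7.61, 2.29, 3.81, 5.69 and 4.52 in the controls and at 12.9, 12.3, 26.7, 10.3 and 14.8 in the cKO samples. Its groups were apart in both cell types, and CD8 cKO 3 was far above the rest. *Lman1l*, a relative of the cargo lectin that moves glycoproteins out of the endoplasmic reticulum, was the least abundant in DP controls, at 0.880, 1.42 and 1.0 normalized CPM, against 3.10, 4.92 and 5.07 in the DP cKO samples. In CD8 cells it stood at 3.15, 0.642, 4.51, 4.41 and 3.06 in the controls and at 10.3, 12.7, 19.3, 5.33 and 9.77 in the cKO samples. The groups of *Lman1l* were apart in both cell types, and its log2 changes were 1.98 ± 0.346 in DP and 1.87 ± 0.397 in CD8 cells.

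*Prr7*, a transmembrane adaptor first described at synapses and also present in T cells, stood at 3.22, 8.72 and 7.37 normalized CPM in the DP controls and at 14.4, 12.8 and 22.7 in the DP cKO samples. In CD8 cells its controls held 20.1, 13.5, 54.8, 59.7 and 52.9 and its cKO samples 30.0, 35.4, 90.6, 72.6 and 74.8. The CD8 groups overlapped, with the samples numbered 1 and 2 low in both genotypes, but each cKO sample was above the control of its number. *Prrt2*, a presynaptic membrane protein, ran the other way. It stood at 61.6, 40.9 and 44.6 normalized CPM in the DP controls and at 35.9, 21.9 and 28.3 in the DP cKO samples, and its log2 change was -0.77 ± 0.214. In CD8 cells its controls held 73.6, 77.7, 34.5, 24.2 and 28.1 and its cKO samples 44.4, 50.8, 19.7, 15.4 and 21.7. Here the samples numbered 1 and 2 were the high ones, the groups overlapped, and each cKO sample was below the control of its number, by ratios from 0.571 to 0.774.

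*Cdr2l*, a paralogue of the cerebellar degeneration antigen Cdr2, stood at 17.3, 16.1 and 20.2 normalized CPM in the DP controls and at 30.9, 27.3 and 32.5 in the DP cKO samples. In CD8 cells its range was 4.30 to 5.91 in the controls and 7.06 to 10.7 in the cKO samples. The groups were apart in both cell types, with log2 changes of 0.76 ± 0.148 and 0.78 ± 0.175. *Prob1*, a proline-rich basic protein of unclear role, stood at 3.52, 4.42 and 2.77 normalized CPM in the DP controls and at 15.1, 8.75 and 10.6 in the DP cKO samples. Its CD8 range was 3.30 to 7.50 in the controls and 6.48 to 10.9 in the cKO samples, so that its groups were apart in DP cells and overlapped in CD8 cells.

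**Figure D2:**
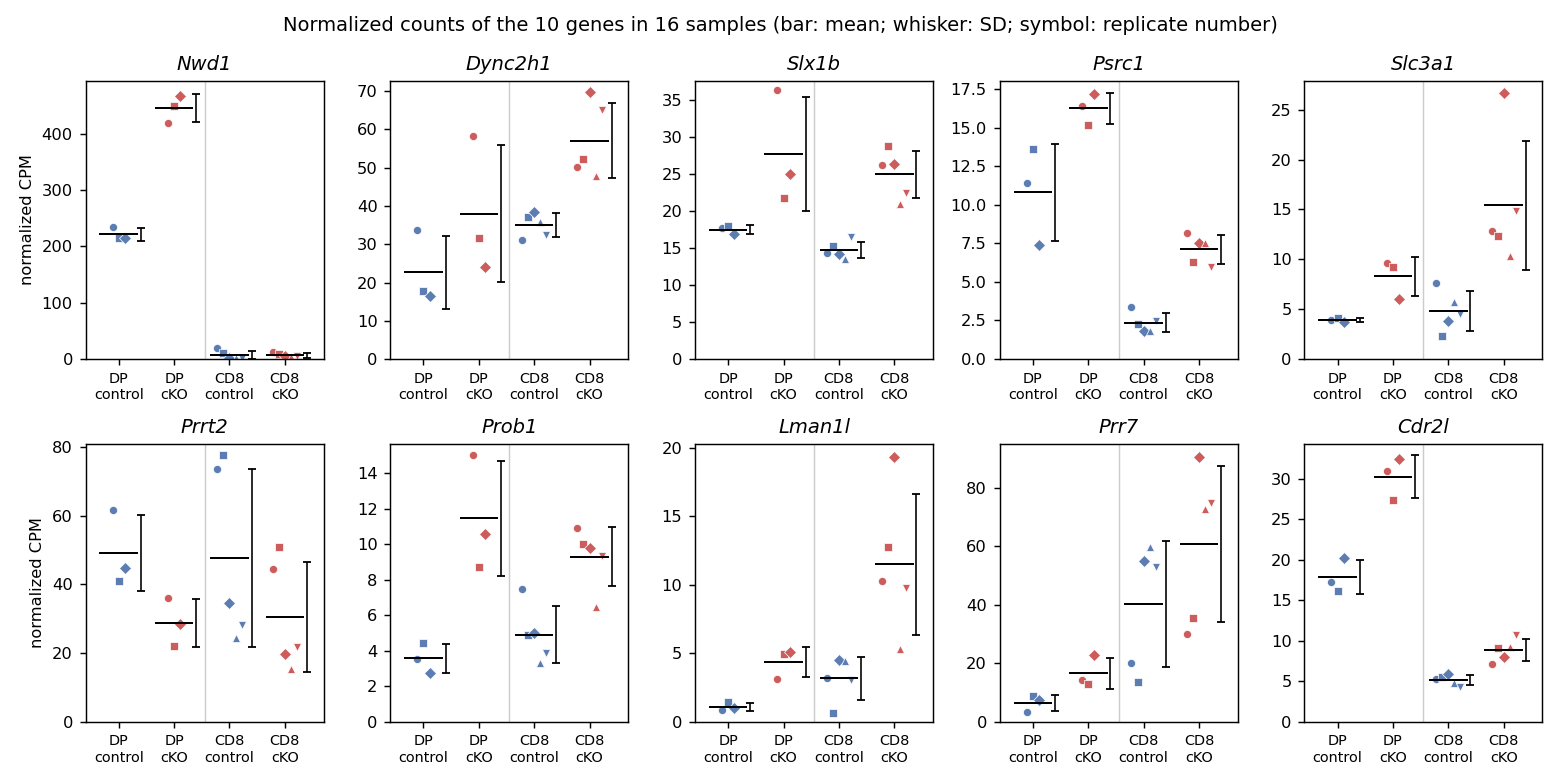
Normalized CPM, on a linear axis from 0, of each of the 10 genes in every control and cKO sample of DP cells (3 against 3) and CD8 cells (5 against 5), with 1 point per sample, its symbol giving the replicate number, a bar at each group's mean and a whisker of 1 SD. *Prrt2* is the gene that sits lower in the cKO samples of both cell types, and the CD8 points of *Prrt2* and *Prr7* spread widely within each genotype.

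All 10 genes passed the filter on low counts in both tables. In DP cells 8 of the 10 had no control sample as high as their lowest cKO sample, all but *Dync2h1* and *Prrt2*, as did 7.87% of the 11748 genes tested. *Prrt2* was the 1 gene below in all cKO DP samples, as were 7.27% of genes tested. In CD8 cells 6 of the 10 were apart in this way, *Dync2h1*, *Slx1b*, *Psrc1*, *Slc3a1*, *Lman1l* and *Cdr2l*, against 0.855% of the 11227 genes tested. The median log2 change of the 10 was 0.89 in DP cells and 0.77 in CD8 cells, and that of all genes tested was -0.00115 and -0.00595. These counts and medians follow from how the genes were chosen.

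A called gene had an adjusted p under 0.05 in the quasi-likelihood test of edgeR, differed by 1.5 times or more and averaged 1 TPM or more. In DP cells 1 of the 10 was called higher, *Nwd1*, and 0.0851% of genes tested were. When same-numbered samples were blocked, 6 were called higher, *Nwd1*, *Dync2h1*, *Prob1*, *Lman1l*, *Prr7* and *Cdr2l* (0.63% of genes tested), and *Prrt2* was called lower (0.485%). DESeq2, the tool named by the study, called 6 higher in DP cells, with *Slc3a1* in place of *Dync2h1* (0.768% of genes it tested), and *Prrt2* lower (0.567%). In CD8 cells edgeR called 3 higher, *Dync2h1*, *Slx1b* and *Psrc1* (0.0891% of genes tested), and DESeq2 called 7, adding *Slc3a1*, *Prob1*, *Lman1l* and *Cdr2l* (0.28%). The call of *Nwd1* in DP cells was lost, leaving 0, without any one of DP controls 2 and 3 and DP cKO 2 and 3. These fits called 0, 2, 1 and 1 of all genes higher. In a fit of all 4 groups *Prob1* was the 1 gene of the 10 called in DP cells, where 17 of all genes were. That fit called 4 of the 10 in CD8 cells, *Slx1b*, *Psrc1*, *Slc3a1* and *Cdr2l*, where 12 of all genes were. In CD8 cells the count was 1, *Psrc1*, without any one of cKO 1, 2 and 3 and controls 2, 4 and 5. These fits called 7, 7, 6, 6, 7 and 5 of all genes higher. The count was also 1, *Psrc1*, without both samples numbered 1, where 4 of all genes were called. It was 0 without CD8 control 3, where 3 of all genes were called. It was 2, *Slx1b* and *Psrc1*, without cKO 5, where 8 of all genes were. Without the library labelled cKO replicate 4 it was 4, with *Slc3a1* added, where 18 of all genes were called. Without CD8 control 1 it was 3, with *Slc3a1* in place of *Dync2h1*, where 14 of all genes were. The log2 changes in CD8 cells, with all samples and then without cKO replicate 4, were 0.01 and 0.21 for *Nwd1*, 0.70 and 0.76 for *Dync2h1*, 0.76 and 0.82 for *Slx1b*, 1.59 and 1.57 for *Psrc1*, 1.69 and 1.80 for *Slc3a1*, -0.63 and -0.47 for *Prrt2*, 0.93 and 1.04 for *Prob1*, 1.87 and 2.04 for *Lman1l*, 0.59 and 0.51 for *Prr7* and 0.78 and 0.76 for *Cdr2l*.

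Among the markers of other cells, edgeR called 1 gene in CD8 cells, *Cd163l1* of the gamma-delta T cell list. Of 6 gamma-delta T cell markers, 3 were in the table, *Sox13*, *Blk* and *Cd163l1*, while *Tcrg-C1*, *Trdc* and *Trdv4* were not listed. Their summed level was 8.86, 7.89, 8.73, 4.56 and 6.43 TPM in the CD8 controls and 29.5, 15.2, 15.3, 14.6 and 22.1 TPM in the CD8 cKO samples, so that all cKO samples lay above all controls. None of the 3 was at 0 in any sample. *Sox13*, a transcription factor of gamma-delta T cells, was the most abundant gene of the list in 7 of the 10 CD8 samples, and *Cd163l1*, a scavenger receptor, in the other 3. *Cd163l1* rose from 2.28 ± 0.646 to 8.23 ± 2.40 TPM (SD, n = 5 per group; log2 change 1.81 ± 0.256; edgeR quasi-likelihood adjusted p = 0.00984). Without cKO replicate 4 the log2 change of *Cd163l1* was 1.89 ± 0.262 (edgeR quasi-likelihood adjusted p = 0.0177). *Sox13* lay higher in every CD8 cKO sample than in every control and had a log2 change of 1.29 ± 0.316 (edgeR quasi-likelihood adjusted p = 0.203). Its adjusted p was 0.0319 by DESeq2. *Blk* was not called and its groups overlapped (log2 change 0.67 ± 0.541; edgeR quasi-likelihood adjusted p = 0.979). The CD8 cells had been sorted as TCRβ+CD8+ thymocytes. The part of gamma-delta T cells in the CD8 values of the 10 genes was not tested.

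In DP cells, transcripts of more mature thymocytes were lower in cKO samples. *Ccr7*, a chemokine receptor of mature thymocytes, stood at 48.6, 29.5 and 24.5 TPM in the DP controls and at 17.1, 16.6 and 13.6 TPM in the DP cKO samples. Its log2 change of -1.07 ± 0.228 passed the test with the replicate block (edgeR quasi-likelihood adjusted p = 0.0240) and by DESeq2 (adjusted p = 0.00238), and not by edgeR without the block (adjusted p = 0.133). *Il7r*, the interleukin-7 receptor, had a log2 change of -0.995 ± 0.302 that passed with the block (adjusted p = 0.0166) but not without (adjusted p = 0.328, edgeR quasi-likelihood) or by DESeq2 (adjusted p = 0.0606), and its groups overlapped. Of the 9 markers of CD8 single-positive cells, 8 were in the table, none was at 0 in every DP sample, *Cd8b1* was the most abundant, and their sum was 5913, 4831 and 4990 TPM in the DP controls and 4901, 4003 and 4211 TPM in the DP cKO samples. Among myeloid markers, *Lyz2*, the lysozyme of macrophages, stood at 18.1, 58.3 and 21.8 TPM in the DP controls and at 9.84, 10.4 and 10.7 TPM in the DP cKO samples (log2 change -1.65 ± 0.437; edgeR quasi-likelihood adjusted p = 0.243, or 0.0716 with the block; DESeq2 adjusted p = 0.00568). *Csf1r*, a receptor of macrophages, was also below every control in every cKO sample (log2 change -1.25 ± 0.434; edgeR quasi-likelihood adjusted p = 0.388, or 0.219 with the block), as were the B cell genes *Pax5* and *Ms4a1* (log2 changes -1.69 and -1.68; edgeR adjusted p = 0.346 and 0.456, or 0.169 and 0.262 with the block). *Cd68*, a lysosomal protein of macrophages, went the other way, with every cKO sample above every control (log2 change 0.63 ± 0.203; edgeR quasi-likelihood adjusted p = 0.346, or 0.174 with the block). All 10 genes of the myeloid list were in the table, none was at 0 in every DP sample, and their sum, led by *Cst3*, was 251, 347 and 277 TPM in the controls and 271, 272 and 291 TPM in the cKO samples. The DP cells had been flow sorted, and the part of mature thymocytes or myeloid cells in the DP values of the 10 genes was not tested.

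The levels of the 10 genes in control cells enter the change by which they were chosen and are given as a description. In DP controls their median was 13.5 TPM, against 31.5 TPM over all genes tested, and 8 of the 10 lay below that median. In CD8 controls their median was 6.24 TPM, against 35.1 TPM, and again 8 of the 10 lay below. Ordered by mean level in DP controls, *Nwd1* came first with 82.0 ± 8.47 TPM (SD, n = 3), then *Prrt2* with 56.8 ± 15.8, *Psrc1* with 17.4 ± 5.13, *Cdr2l* with 13.8 ± 1.61, *Slx1b* with 13.5 ± 0.894, *Prr7* with 13.4 ± 5.52, *Slc3a1* with 4.83 ± 0.295, *Dync2h1* with 4.66 ± 2.21, *Prob1* with 2.1 ± 0.470 and *Lman1l* with 1.80 ± 0.401. The 4 genes from *Psrc1* to *Prr7* differed by less than their spread, as did *Slc3a1* from *Dync2h1* and *Prob1* from *Lman1l*. In CD8 controls *Prr7* came first with 95.1 ± 50.8 TPM (SD, n = 5), followed by *Prrt2* with 62.0 ± 34.3, which lay within that spread. *Nwd1* came last with 2.93 ± 3.13 TPM.

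Control CD8 cells were compared with control DP cells to ask how these genes differ along thymocyte maturation. *Nwd1* was 82.0 TPM in DP and 2.93 TPM in CD8 controls, a log2 difference of -4.92 ± 0.609 (edgeR quasi-likelihood adjusted p = 2.93e-05). That difference ran from -5.65 to -4.64 as single samples were left out. CD8 controls 1 and 2 carried the CD8 mean, at 18.7 and 10.8 normalized CPM against 1.30 to 2.39 in the others. *Psrc1* was lower in CD8 controls by a log2 difference of -2.09 ± 0.273 (edgeR quasi-likelihood adjusted p = 4.42e-05), and *Cdr2l* by -1.70 ± 0.171 (adjusted p = 5.63e-06). *Prr7* was higher in CD8 controls by 2.74 ± 0.516 (edgeR quasi-likelihood adjusted p = 0.000696), *Lman1l* by 1.61 ± 0.539 (adjusted p = 0.0219) and *Dync2h1* by 0.73 ± 0.216 (adjusted p = 0.0120). Thus 3 of the 10 were called higher in CD8 and 3 lower, where 22.0% and 22.3% of the 11758 genes tested were. The same control samples entered the choice of the 10 genes, so these counts are a description. *Slx1b*, *Slc3a1*, *Prrt2* and *Prob1* were not called, with log2 differences of -0.15, 0.39, 0.05 and 0.55. The call of *Dync2h1* was lost without DP control 2 or DP control 3 and that of *Lman1l* without CD8 control 3, DP control 1 or DP control 3. The cell types were deposited in separate tables with separate samples, so cell type and table cannot be told apart.

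**Figure D3:**
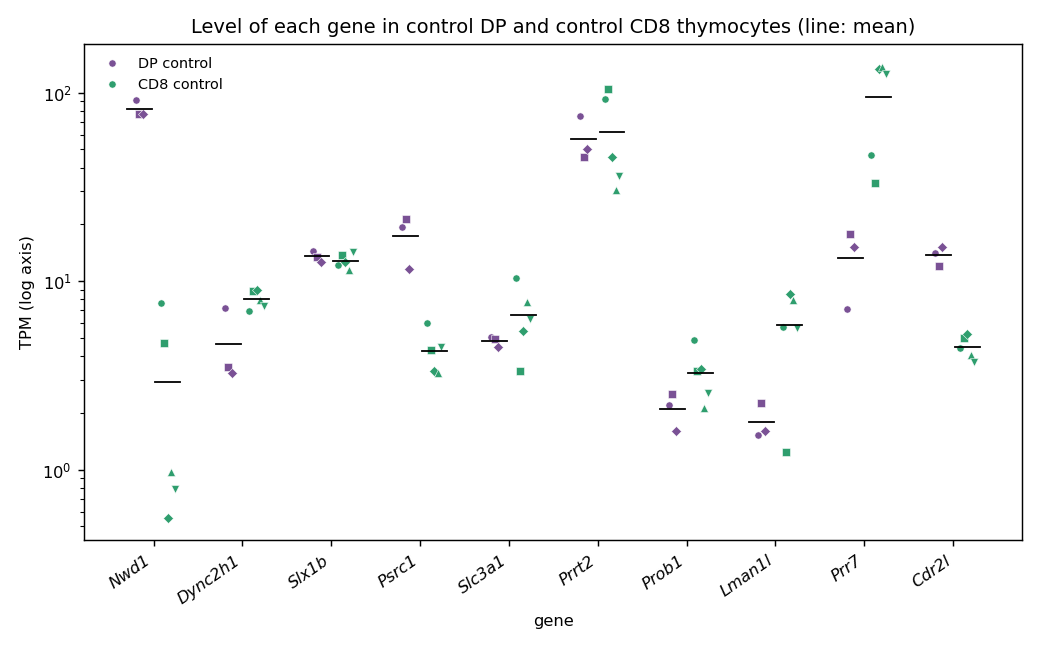
Level in TPM on a logarithmic axis of the 10 genes in the 3 DP and 5 CD8 control samples, with 1 point per sample and a line at each mean. *Nwd1*, *Psrc1* and *Cdr2l* sit lower in CD8 controls, and *Prr7*, *Lman1l* and *Dync2h1* sit higher.

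The difference between the CD8 and the DP change was the interaction term of an edgeR fit of all 4 groups. It stood at an adjusted p under 0.05 for 0 of the 10 genes and for 0.107% of the 12131 genes tested. *Psrc1* had a CD8 change 1.0 ± 0.308 larger on the log2 scale than its DP change. For *Nwd1*, whose DP change was 1.01 and CD8 change 0.01, the difference was -0.95 ± 0.771. The changes in both cell types and their agreement entered the choice of the 10 genes, so these values are a description and no test of a difference.

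Each gene lay behind another gene transcribed in the same direction. By the coordinates of the DP table (mm10), the closest upstream gene on the same strand with a mean of at least 1 TPM in DP cells was *Maz*, 925 bases before *Prrt2*, *Spata24*, 1489 before *Prob1*, *Grk6*, 3339 before *Prr7*, *Coro1a*, 3990 before *Slx1b*, *Ppm1b*, 4354 before *Slc3a1*, and *Csk*, 5871 before *Lman1l*. The other 4 genes were farther from theirs, with *Sort1* 22284 bases before *Psrc1*, *Tmem38a* 59426 before *Nwd1*, *Tmem104* 134890 before *Cdr2l* and *Birc2* 641167 before *Dync2h1*. Genes at lower levels lay closer in 3 cases, *Mybphl* before *Psrc1* at 3746 bases, *Otop3* before *Cdr2l* at 34988 and *Mmp1b* before *Dync2h1* at 190611, all 3 at 0 in every DP sample. The median gap was 5112 bases for the 10 genes and 77400 for the other 11681 genes tested in DP cells that had such a neighbour. Gaps of at most 5000 bases were found for 5 of the 10 and for 11.9% of the other genes tested. The closest upstream gene was part of how the list was described, so these gaps are a description and support nothing.

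The upstream neighbours were chosen by position and by their mean level over all DP samples, and not by their change, so their changes were tested. None of the 10 was called in DP cells by edgeR, by edgeR with the block or by DESeq2, where edgeR called 0.145% of genes tested in either direction, edgeR with the block 0.63% higher and 0.485% lower, and DESeq2 0.768% higher and 0.567% lower. An unadjusted p under 0.05 was found for 1, *Ppm1b*, and for 1079 of the 11748 genes tested. None was called in CD8 cells by edgeR or DESeq2, where edgeR called 0.098%, and DESeq2 called 35 of all genes higher and 11 lower. In CD8 cells 1 of these neighbours, *Grk6*, had an unadjusted p under 0.05, as did 629 of the 11227 genes tested. Their log2 changes ran from -0.27 to 0.54 in DP cells and from -0.28 to 0.31 in CD8 cells. The largest was that of *Spata24*, a spermatogenesis gene upstream of *Prob1*, at 0.54 ± 0.302 in DP cells (edgeR quasi-likelihood adjusted p = 0.661, or 0.336 with the block), with 8.78 ± 3.27 TPM in controls and 12.3 ± 2.12 TPM in cKO samples (SD, n = 3 per group). *Ppm1b*, a protein phosphatase upstream of *Slc3a1*, was at 54.5 ± 5.30 TPM in DP controls and 44.0 ± 5.05 in DP cKO samples, the opposite direction from *Slc3a1* (log2 change -0.27 ± 0.111; edgeR quasi-likelihood adjusted p = 0.490, or 0.196 with the block). *Maz*, a zinc-finger transcription factor upstream of *Prrt2*, had a positive log2 change of 0.34 ± 0.156 in DP cells (edgeR quasi-likelihood adjusted p = 0.560, or 0.194 with the block) where *Prrt2* had a negative one. The closest downstream genes on the same strand were tested for 6 of the 10 in each cell type, and 0 were called by edgeR or DESeq2, against the same shares over all genes, with *Mrpl58* behind *Cdr2l* the 1 gene at an unadjusted p under 0.05 in DP cells and 0 in CD8 cells. Their log2 changes ran from -0.13 to 0.33 in DP cells and from -0.35 to 1.51 in CD8 cells. The largest was that of *Cplx3*, 751 bases behind *Lman1l*, with 0.639 ± 1.05 TPM in CD8 controls and 1.79 ± 0.582 TPM in CD8 cKO samples (SD, n = 5 per group; log2 change 1.51 ± 0.725; edgeR quasi-likelihood adjusted p = 0.912). In DP cells *Cplx3* was too low to test, at a mean of 0.0197 normalized CPM in controls and 0.434 in cKO samples.

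**Figure D4:**
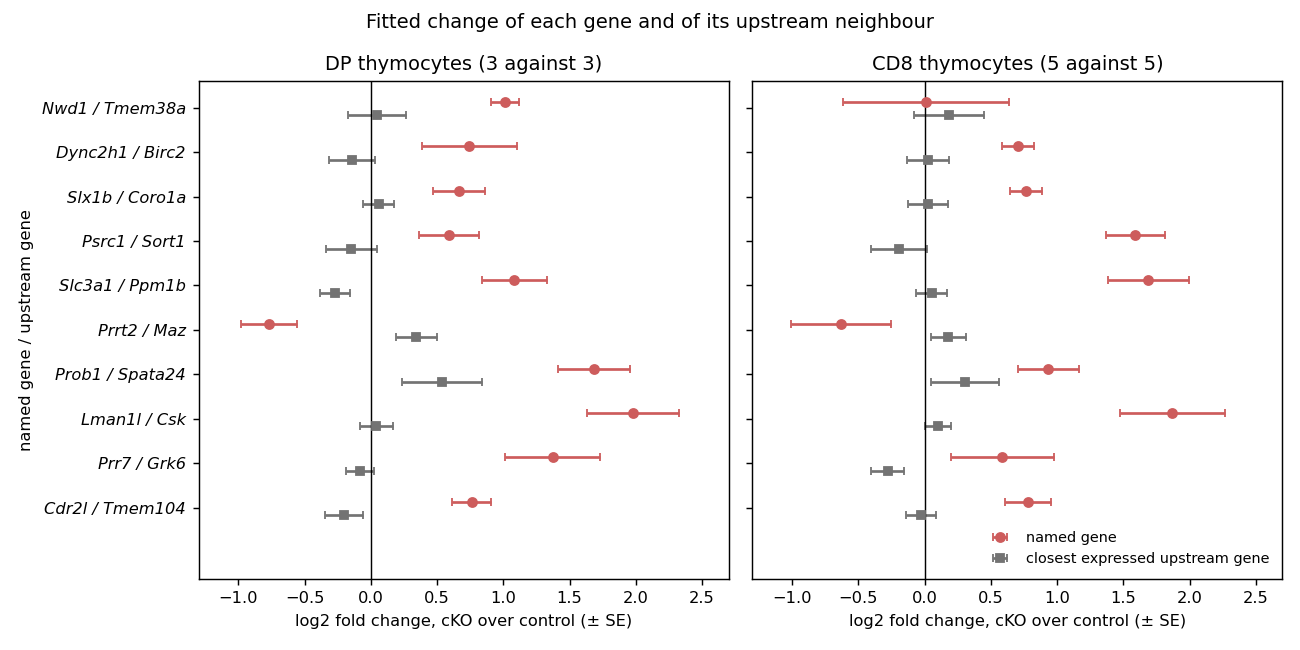
Log2 fold change with its SE, cKO over control, of each of the 10 genes (circles) and of its closest expressed upstream gene (squares) in DP cells (3 against 3) and CD8 cells (5 against 5). The squares lie between -0.28 and 0.54 in both panels, while the circles of 9 genes lie at or to the right of 0 and that of *Prrt2* to the left.

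The levels of the 6 genes with a gap of at most 10000 bases, and of *Nwd1*, were set against those of their upstream neighbours in TPM. *Slx1b* stood at 0.690% of the level of *Coro1a*, an actin regulator of leukocytes, in DP controls and at 1.05% in DP cKO samples, where *Coro1a* had 1964 ± 28.6 TPM in controls, and at 1.23% and 2.07% in CD8 cells. *Lman1l* stood at 0.538% of *Csk*, the kinase that restrains Lck, in DP controls and at 2.07% in DP cKO samples, and in CD8 cells at 1.67% and 5.78%. *Slc3a1* stood at 8.87% of *Ppm1b* in DP controls and 22.9% in DP cKO samples, and at 8.19% and 25.6% in CD8 cells. *Prr7* stood at 5.83% of *Grk6*, a receptor kinase, in DP controls and 16% in DP cKO samples, and at 22.1% and 40.8% in CD8 cells. *Prob1* stood at 24.0% of *Spata24* in DP controls and 53.9% in DP cKO samples, and at 31.6% and 48.5% in CD8 cells. *Prrt2* stood at 8.08% of *Maz* in DP controls and 3.72% in DP cKO samples, and at 17.3% and 9.72% in CD8 cells. *Nwd1* stood at 456% of *Tmem38a* in DP controls and 889% in DP cKO samples, and at 63.5% and 54.8% in CD8 cells. On the opposite strand *Slc3a1* overlaps *Prepl*, *Dync2h1* overlaps *Dcun1d5* and, in GENCODE M21, *Slx1b* overlaps *Bola2*. Counting was strand-specific, and fragments given to the wrong strand were not measured. In GENCODE M21 a same-strand *SPATA24* model spans *Mzb1*, *Prob1* and *Spata24* and starts upstream of *Prob1*. *Gm42742* starts inside *Prrt2* and runs on over *Pagr1a*, and the pseudogene *Gm6939* overlaps the end of *Slx1b*. Gene counts do not separate transcripts that start at *Prob1* from those that start upstream of it, and which of these changed was not tested.

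Genes in the same position across the genome gave the background, with the 10 genes left out. Of 1392 other genes tested in DP cells that lay at most 5000 bases behind an expressed same-strand gene, 13.0% had every cKO sample above every control, against 7.09% of the 10335 remaining genes. The shares below every control were 5.17% and 7.55%, and the median log2 changes were 0.08 and -0.01. In CD8 cells 1.83% of 1312 such genes were above in every cKO sample, against 0.667% of 9891, and 1.37% against 0.546% were below, with medians of -0.03 and -0.00. Genes behind a close neighbour were thus more often apart upward than other genes in DP cells, and more often apart in both directions in CD8 cells. Genes are not independent replicates, and no test was made of these shares.

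**Figure D5:**
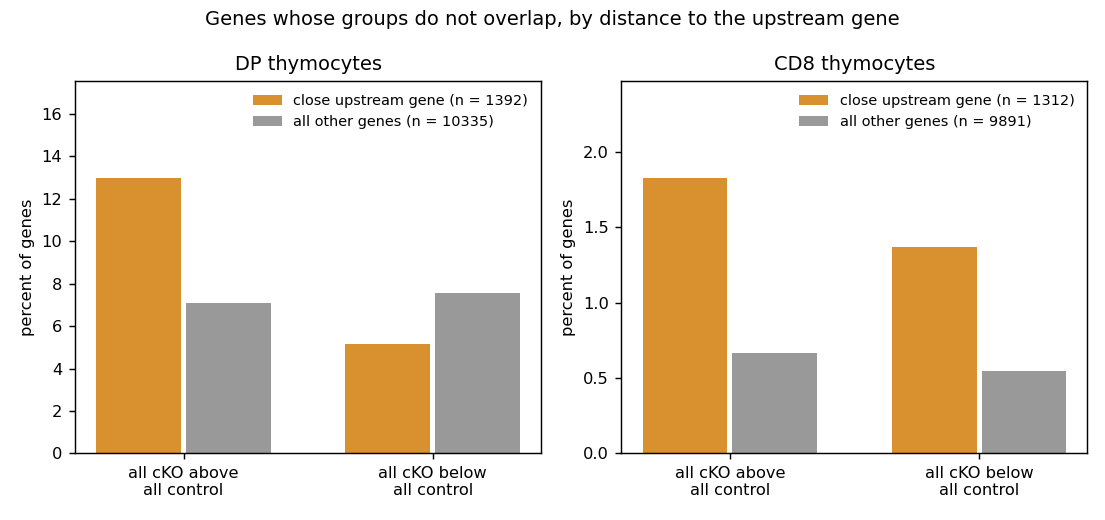
Percent of genes tested whose cKO samples all lie above, or all lie below, the control samples, for genes at most 5000 bases behind an expressed same-strand gene and for all other genes tested, in DP and CD8 cells, with the 10 genes left out and the vertical axis starting at 0. In DP cells 13.0% of the genes with a close upstream gene lie above, against 7.09% of the others.

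Partners of the encoded proteins were examined in 7 lists of 99 genes, 91 of them tested in DP and 83 in CD8 cells. None was called by edgeR in DP cells, where 5 had an unadjusted p under 0.05, as did 1079 of the 11748 genes tested, and DESeq2 called 2, where it called 0.768% of genes it tested higher and 0.567% lower. None was called by edgeR in CD8 cells, where 2 had an unadjusted p under 0.05, as did 629 of the 11227 genes tested. DESeq2 called 0 there, where it called 35 of all genes higher and 11 lower. The listed gene with the lowest DESeq2 adjusted p in CD8 cells, 0.00558, missed another criterion of a call. Of 33 genes of dynein-2 and intraflagellar transport, 32 were tested in DP cells with a median log2 change of 0.04 and 27 in CD8 cells with -0.04. Their most abundant genes were the dynein light chains *Dynlrb1* and *Dynll1*, at 284 ± 10.7 and 214 ± 10.1 TPM in DP controls, and *Ift80*, at 109 ± 17.9 TPM. None of the 3 had an adjusted p under 0.05 by edgeR in either cell type. The 17 genes of the SLX1-SLX4 nuclease and Holliday junction list were all tested, with medians of 0.08 in DP and 0.02 in CD8 cells. Among its abundant genes were *Plk1* and *Mus81*, at 83.6 ± 20.9 and 81.6 ± 1.51 TPM in DP controls. *Eme2*, a partner of the Mus81 nuclease, had the smallest adjusted p of this list in both cell types, was called by DESeq2 in DP cells, and was named after its values were seen. It stood at 27.4 ± 3.75 TPM in DP controls and 41.3 ± 1.37 in DP cKO samples (log2 change 0.64 ± 0.146; edgeR quasi-likelihood adjusted p = 0.172, or 0.0653 with the block). In CD8 cells it stood at 42.2 ± 4.51 and 64.7 ± 6.39 TPM (log2 change 0.58 ± 0.115; edgeR quasi-likelihood adjusted p = 0.0973).

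Of 9 heteromeric amino acid transporter genes, 6 were tested in DP cells with a median log2 change of 0.11 and 5 in CD8 cells with 0.03. *Slc3a2*, the paralogue of *Slc3a1*, was at 105 ± 26.0 TPM in DP controls, and *Slc7a6* at 57.6 ± 4.97. *Slc7a11*, the light subunit of the cystine-glutamate exchanger, was at 64.0 ± 15.4 TPM in DP controls and 115 ± 14.4 in DP cKO samples. Its log2 change of 0.89 ± 0.161 was called with the replicate block (edgeR quasi-likelihood adjusted p = 0.0217) and by DESeq2, and not without the block (adjusted p = 0.107). In CD8 cells it was at 0.613 ± 0.693 TPM in controls. All 11 genes listed for the early secretory pathway, cargo lectins among them, were tested, with medians of 0.05 in both cell types. *Calr*, *Surf4* and *Ergic3* led this list at 381 ± 56.8, 287 ± 16.6 and 209 ± 5.67 TPM in DP controls. Of 12 spindle microtubule partners of Psrc1, 11 were tested, with medians of 0.04 in DP and 0.10 in CD8 cells, led by *Mapre1*, *Tpx2* and *Aurka* at 87.8 ± 3.67, 70.0 ± 20.5 and 62.9 ± 19.0 TPM in DP controls. Adaptors of lymphocytes were listed because Prr7 is likened to the transmembrane ones among them. In DP cells 9 were tested with a median of -0.02, and in CD8 cells 8 with 0.04. *Lat*, *Themis* and *Sit1* led this list at 2122 ± 221, 352 ± 110 and 315 ± 15.1 TPM in DP controls. Of 8 paralogues by name, 5 were tested in DP cells with a median of 0.26 and 4 in CD8 cells with -0.26, led by *Prrt1*, *Prr14* and *Cdr2* at 535 ± 78.9, 240 ± 36.5 and 7.30 ± 0.841 TPM in DP controls.

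The profile of the 10 genes over the 16 samples, centred within each cell type and averaged, was used to rank 10910 other genes by Pearson's r. The highest were *Tspoap1* (r = 0.956), *Ppp1r10* (r = 0.941), which encodes PNUTS, *Gm21992* (r = 0.935), *Dnah10* (r = 0.935), an axonemal dynein heavy chain, and *Eno3* (r = 0.920), the muscle enolase. *Ttc41*, *Fbxl22*, *Pde1b*, *Tapbpl* and *Npm2* followed, with r from 0.912 to 0.890. Among the 10 themselves, *Prob1* was closest to the mean profile (r = 0.942) and *Slx1b* (r = 0.910), *Slc3a1* (r = 0.906), *Psrc1* (r = 0.877), *Lman1l* (r = 0.862) and *Cdr2l* (r = 0.836) followed. *Dync2h1* (r = 0.737), *Nwd1* (r = 0.511) and *Prr7* (r = 0.459) were less alike, and *Prrt2* ran against it (r = -0.316). These r describe 16 samples that share genotype groups and libraries, and each of the 10 genes enters the mean it was compared with. The profile was not centred within genotype, so the difference by which the 10 genes were chosen enters the ranking. The ranking is therefore a description and supports no link between these genes.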

How the data were processed

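PolyA RNA was sequenced as strand-specific libraries from DP thymocytes (3 control, 3 cKO) and CD8 thymocytes (5 control, 5 cKO). The deposited values are raw counts of fragments per gene, which the authors made with fastp 0.13.1, HISAT2 2.1.0 and featureCounts 1.6.1, on mm10 for DP cells; the methods name no build for CD8 cells, and the labels list mm10. Exonic bases per gene (Length, a value of other kind) come from the deposited DP table, and TPM was computed for both cell types from the deposited counts and that length. The CD8 columns named control and Tox4 knockout were read as replicates 1 to 5 of each genotype in the order of their numbers.

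Genes with low counts were removed with filterByExpr, libraries were scaled by TMM, and groups were compared with the quasi-likelihood test of edgeR 4.0.16 in R 4.3.3, with Benjamini-Hochberg adjusted p over all genes tested and limma 3.58.1 loaded by it. Fold changes are cKO over control on the log2 scale, and each SE is the size of the log2 fold change divided by the square root of F. The fits were tested on simulated data before use. Tables were handled with numpy 2.4.6 and pandas 2.3.3 and drawn with matplotlib 3.10.9. Neighbours were taken from the coordinates of the DP table, leaving out genes given at several loci. Promoters came from RefSeq on GRCm38.p6, and overlaps from the coordinates of the DP table and from GENCODE M21, which lists no overlap of *Dync2h1* with *Dcun1d5*.

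The 10 genes, the gene lists and the markers were fixed before the data were examined here, but with earlier results of these data known. Genes named are *Tox4*, the 10 genes, their closest same-strand neighbours, those of each list that passed or otherwise up to 3 with the highest level, and the 10 whose profiles were most alike; others are said to be named after their values were seen. A gene that the rule would name was left out of the text because it is withheld. Alternatives fixed beforehand were DESeq2 1.42.0, with and without the replicate block, other scalings, other filters, a robust prior, 1 fit of all groups, other call thresholds, other definitions of an upstream neighbour, and leaving out each sample. Leaving out both CD8 samples numbered 1, and counting genes called lower, were added after seeing the data. Fits within CD8 samples 1 and 2 and within 3 to 5 were also run, seen and dropped, because that split came from measured values. Same-numbered DP samples of the 2 genotypes had residuals that correlated at 0.643, 0.120 and 0.290, above the minimum of 0.1 set for blocking, so blocked values stand beside the tested DP results of named genes. DP samples of unlike number correlated at up to 0.324, and 2 of 6 DP samples correlated best with their own number. The sample titles do not say that equal numbers mark a shared litter or preparation, so the pairing is assumed.

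Fragments without molecular identifiers are not counts of independent molecules. The SE and p of each fit rest on the spread between samples, as estimated by edgeR or DESeq2. With 3 samples per group in DP cells, a p that misses the threshold does not show that levels did not differ. Gene counts do not separate transcripts of 1 gene, and 3 genes had no matched promoter.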

Additional observations from a re-analysis of the deposited data

Results flagged for a closer look

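*Slc3a1* stood at 26.7 normalized CPM in the CD8 sample cKO 3, far from the other 4 samples of its group. The nearest of them had 14.8, and the gap was 0.723 of the group's range, above Dixon's critical value of 0.71. Chance gives about 1 such group in 20, and 42 groups of samples were checked. Without cKO 3 the log2 change of *Slc3a1* in CD8 cells stayed positive, and as single samples were left out it lay between 1.40 and 1.91.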

How the results depend on the processing

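The number of the 10 genes called higher in DP cells was 1 by edgeR, 6 by DESeq2, 7 by DESeq2 with the replicate block, 6 by edgeR with the block and 3 with no filter on low counts, where these settings called 10, 92, 111, 74 and 45 of all genes higher. It was 0 to 1 as single samples were left out. In CD8 cells the number was 3 by edgeR, 7 by DESeq2, 6 by DESeq2 with the block, 7 by edgeR with the block and 5 with no filter, where 10, 35, 31, 25 and 13 of all genes were called higher. It was 1 without both samples numbered 1, where 4 of all genes were, and 0 to 4 as single samples were left out. A same-numbered pair of CD8 samples correlated at 0.0908, under the minimum of 0.1 set for blocking, and 5 of 10 CD8 samples correlated best with their own number (2 of 6 in DP cells), so the CD8 block is given here alone. *Prrt2* was called lower in CD8 cells by edgeR and by DESeq2 with that block, and by neither without it. *Sox13* in CD8 cells had an adjusted p of 0.0211 by edgeR with that block. The cause was not tested.

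Of 150 values of the 10 genes in DP cells under the alternatives, 123 kept direction and side of the threshold, 5 lost the call, 22 gained it and 0 changed sign. Of 199 in CD8 cells, 154 kept both, 20 lost the call, 19 gained it and 6 changed sign, all of them *Nwd1*, which had a log2 change of -0.019 by DESeq2 and -0.37 to 0.77 as single samples were left out. *Prrt2* in control CD8 against control DP cells ran from -0.19 to 0.25. Among upstream genes in DP cells, *Tmem38a* ran from -0.12 to 0.22, *Coro1a* from -0.024 to 0.13, *Sort1* from -0.28 to 0.0045 and *Csk* from -0.039 to 0.11 as single samples were left out. In CD8 cells *Birc2* ran from -0.069 to 0.10, *Coro1a* from -0.10 to 0.10, *Ppm1b* from -0.036 to 0.11 and *Tmem104* from -0.10 to 0.028. Without both CD8 samples numbered 1, *Coro1a* had -0.12 and *Tmem104* 0.040. The cause was not tested for any of these. Under every alternative run, 0 upstream genes were called and 0 of the 10 genes passed the test of the difference between cell types. *Lman1l* had no value in CD8 cells where at least 10 counts were required in every sample.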

Other observations

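Markers of other cells were low or did not pass the test. The B cell markers, 6 of 7 in the table without *Ighm* and led by *Cd79b*, summed to 42.1 to 61.9 TPM in DP controls and 40.2 to 44.9 TPM in DP cKO samples, and to 20.5 to 66.4 and 23.1 to 52.6 TPM in CD8 cells. Thymic epithelial markers, 8 of 8 in the table, summed to 13.8 to 17.1 TPM in DP controls and 12.6 to 15.5 TPM in DP cKO samples, with *Foxn1* at 0 in every DP sample. Their sum in CD8 cells was 5.81 to 21.3 TPM in controls and 9.08 to 16.1 TPM in cKO samples. The 4 globins of the erythroid list were at 0 in every sample of both cell types. Myeloid markers in CD8 cells summed to 98.4 to 161 TPM in controls and 101 to 188 TPM in cKO samples.

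Of 8 multiciliated cell markers, 7 were in the table, without *Dnai1*. *Foxj1* led them in every DP sample but DP control 1, where *Rsph1* did. *Gmnc*, *Dnah5* and *Tekt1* were at 0 in every DP sample. The 7 markers summed to 1.58 to 9.69 TPM in DP controls and 5.03 to 17.2 TPM in DP cKO samples. In CD8 cells they summed to 0.750 to 3.49 and 1.41 to 4.62 TPM. Fibroblast and endothelial markers, 7 of 7 in the table, summed to 120 to 137 TPM in DP controls and 123 to 133 TPM in DP cKO samples, with *Col3a1* at 0 in every DP sample, and to 182 to 228 and 199 to 286 TPM in CD8 cells. Nearly all of these sums was *Pecam1*, at 119 to 137 and 121 to 132 TPM in DP controls and cKO samples. In CD8 controls and cKO samples *Pecam1* stood at 181 to 224 and 196 to 283 TPM. No other gene of this list passed 3.75 TPM in any sample, the level of *Col1a1* in 1 CD8 control. Gamma-delta T cell markers in DP cells summed to 2.39 to 3.28 TPM in controls and 1.99 to 3.50 TPM in cKO samples. CD8 single-positive markers in CD8 cells summed to 6190 to 8553 TPM in controls and 5765 to 9026 TPM in cKO samples. None of the genes of these lists was called by edgeR in these comparisons.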
